A study of Mus musculus with 4 samples.

Results

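The 5 microRNA hairpins described here, mmu-mir-143, mmu-mir-145a, mmu-mir-199a-1, mmu-mir-199a-2 and mmu-mir-214, were taken by name from the 605 hairpins of the microRNA class, which is among 5 small RNA classes that together list 2150 features. They come from 3 genomic loci and are known best from smooth muscle cells and fibroblasts rather than from sperm. Small RNA was sequenced from sperm of the cauda epididymis, where mature sperm are stored, of adult C57BL/6 mice, with 2 mice from a breeding labelled extra cross to wildtype and 2 from a breeding labelled original cross. Each mouse gave 1 library, and RNA of all 4 was size-selected on a gel. The study's title sets sperm in which LoxP, the sequence cut by Cre recombinase, can be silenced against sperm in which it cannot. Neither the susceptible cross nor the alleles of the mice are given in the labels, so the crosses are named only as extra and original. The preparations were washed and labelled as spermatozoa, with no sorting step named.

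A microRNA hairpin is cut from a longer transcript and then trimmed to a mature RNA of either arm, whose seed, bases 2 to 8, pairs with target messages. The miR-143 and miR-145 hairpins are made from a shared primary transcript under serum response factor and myocardin, and they help hold smooth muscle cells, such as those of the epididymal duct wall, in the contractile state. The miR-199a-2 and miR-214 hairpins share the antisense transcript Dnm3os, which Twist1 activates in mesenchymal cells and fibroblasts.

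In GRCm38, the assembly also called mm10, mir-199a-2 lies at chr1:162217814-162217923 on the plus strand and mir-214 at chr1:162223368-162223477, 5444 bp apart. Both lie in an exon of the long noncoding RNA Dnm3os and opposite to an intron of the dynamin gene Dnm3. The second copy of miR-199a lies on the minus strand at chr9:21496495-21496564, opposite to an intron of Dnm2. Their relative mir-199b lies at chr2:32318460-32318569, opposite to an intron of Dnm1. The mature arms of miR-199a and miR-214, from RefSeq in GRCm38.p6, are shown with the seed in capitals, because the results compare these hairpins and turn on reads they share.
mmu-miR-199a-5p: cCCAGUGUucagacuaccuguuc
mmu-miR-199a-3p: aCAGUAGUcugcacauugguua
mmu-miR-214-5p: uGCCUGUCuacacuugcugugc
mmu-miR-214-3p: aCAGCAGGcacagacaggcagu
The 3p seeds of miR-199a and miR-214 are alike at 5 of 7 bases and differ by U5C and U8G, with the miR-199a base first and positions counted from 1 at the 5′ end of the mature RNA.

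The 3 hairpins that can give miR-199 are shown next, since what they share bears on how reads were assigned. Capitals mark the mature arms that the RefSeq table lists.
Mir199a-1: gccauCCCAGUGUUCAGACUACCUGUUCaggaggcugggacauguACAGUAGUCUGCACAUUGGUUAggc
Mir199a-2: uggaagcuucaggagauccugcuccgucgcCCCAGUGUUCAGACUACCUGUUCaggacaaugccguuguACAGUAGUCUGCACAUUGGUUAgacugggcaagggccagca
Mir199b: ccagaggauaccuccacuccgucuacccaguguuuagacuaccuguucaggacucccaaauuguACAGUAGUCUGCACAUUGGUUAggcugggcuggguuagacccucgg
The 3p arm is identical over its 22 bases in all 3 hairpins. The 5p arm of miR-199a is identical over 23 bases in both miR-199a hairpins and differs from mir-199b by C10U, with the miR-199a base first and positions counted from 1 at the 5′ end of the arm. A perfect 3p read therefore has 3 possible sources and a perfect miR-199a-5p read has 2.

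Values are RPM, meaning reads scaled to a fixed library total, per hairpin and as deposited. They are not divided by length. The commonest microRNA value in a library was taken as 1 read. It was 0.642 and 0.238 RPM in extra-cross replicates 1 and 2, against 1.58 and 0.561 RPM in original-cross replicates 1 and 2. The microRNA class amounted to 687822 and 590633 reads in the extra-cross libraries, against 174548 and 209128 reads in the original-cross libraries. It made up 441544 and 140437 RPM in the extra cross, against 275809 and 117322 RPM in the original cross, so that it also differed by replicate number. Libraries of the same replicate number share a table, 2 tables in all, and values within each table are given beside the pooled ones.

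The values of the miR-199 hairpins showed how shared reads had been counted. In every library mir-143, mir-145a and mir-214 stood at whole numbers of reads, within 0.018 reads. The mir-199a-1 and mir-199a-2 values lay at fractions of a read, for example at 691.33 and 692.34 reads in extra-cross replicate 1. Summed with mir-199b they came back to whole numbers in every library, within 0.064 reads. Reads with several matches were thus divided among the hairpins, and the 2 copies of miR-199a are 1 measurement given in 2 rows. They differed from each other by 1.00 and 4.00 reads in the extra-cross libraries, against 1.00 and 4.01 reads in the original-cross libraries. The summed family, unlike a single row, counts each read once: it held 1945 and 10558 reads in the extra cross, against 3273 and 6901 reads in the original cross.

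The miR-199a hairpins had the largest difference between the crosses among the 5, and both were lower in the extra cross. Hairpin mir-199a-2 had 444 and 1036 RPM in extra-cross replicates 1 and 2, against 2268 and 1679 RPM in original-cross replicates 1 and 2. Both extra-cross libraries lay below both original-cross libraries, with the extra-cross library of replicate 1 farthest below. MiR-199a is abundant in fibroblasts, where its 5p arm is known to repress caveolin-1. The log2 fold change, on the log2(RPM + 1) scale, was -1.52 ± 0.65 (SE, n = 2 per cross), with -2.35 and -0.70 within the tables of replicates 1 and 2. Its row copy mir-199a-1, at 443.8 and 1035 RPM in the extra cross against 2270 and 1677 RPM in the original cross, gave -1.52 as well. Among the 206 hairpins with a mean of at least 10 RPM, only mir-224 (-2.54) had a lower value than these copies. The test across all features did not call them (limma, Benjamini-Hochberg adjusted p = 0.415 for each). With the replicate number as a block both copies were called (limma adjusted p = 3.9e-08 for each), in a fit that leaves 1 residual degree of freedom and assumes a pairing of mice that the labels do not state. The SE of mir-199a-2 in that fit, 0.24, rests mostly on the variance of all features. Its values within the tables, -2.35 and -0.70, lie much farther apart than this SE.

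Summed over its 3 hairpins the miR-199 family held 0.283% and 1.79% of microRNA RPM in the extra cross, against 1.88% and 3.30% in the original cross. The groups did not overlap, but extra-cross replicate 2 came close to original-cross replicate 1. How many other hairpins have shares that do not overlap was not counted. The difference of means was -1.55 percentage points (exact permutation test, two-sided, p = 0.33, the smallest that 2 against 2 allows). Taken as a single microRNA the family ranked 32 and 8 among the single rows of other hairpins in the extra cross, against 6 and 4 in the original cross. Copies of other hairpins were not summed, so these ranks may be too high.

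Hairpin mir-214, made from the same Dnm3os transcript as mir-199a-2, was far less abundant. It had 38.5 RPM in both extra-cross libraries, against 77.4 and 51.1 RPM in the original-cross libraries. In deposited RPM the groups did not overlap. These values are 60 and 162 reads in the extra cross, against 49 and 91 reads in the original cross. With so few reads the exact Poisson 95% interval, for counting error only, was 29.4 to 49.6 RPM in extra-cross replicate 1, against 57.3 to 102 RPM in original-cross replicate 1. In replicate 2 the intervals overlapped, at 32.8 to 44.9 RPM in the extra cross, against 41.1 to 62.7 RPM in the original cross. The log2 fold change was -0.69 ± 0.44 (SE), with -0.99 and -0.40 in the tables of replicates 1 and 2 (limma adjusted p = 0.826).

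The remaining hairpins, mir-145a (chr18:61647825-61647894) and mir-143 (chr18:61649196-61649258), lie 1301 bp apart on the minus strand, within the RefSeq span of the noncoding RNA Carmn. The smooth muscle hairpin mir-143 did not separate the crosses. It had 856 and 2162 RPM in the extra cross, against 1726 and 1867 RPM in the original cross. The 2 extra-cross mice held the lowest and the highest of the 4 values. MiR-143 acts beside miR-145 in smooth muscle. Its log2 fold change was -0.40 ± 0.66 (SE), made of -1.01 in the table of replicate 1 and 0.21 in that of replicate 2 (limma adjusted p = 0.995).

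Hairpin mir-145a, whose mature RNA is known to repress the stem cell factor Klf4 in smooth muscle, had 1240 and 367 RPM in the extra cross, against 1572 and 474 RPM in the original cross. On this scale both libraries of replicate 1 were well above both of replicate 2. As a share of microRNA RPM, whose total was itself higher in both libraries of replicate 1, mir-145a held 0.281% and 0.261% in the extra cross, against 0.570% and 0.404% in the original cross. By that measure the libraries split by cross instead, with both extra-cross libraries the lower. How many other hairpins split so was not counted, and on that scale the median log2 fold change of all hairpins was -0.27. For mir-143 the shares were 0.194% and 1.54% in the extra cross, against 0.626% and 1.59% in the original cross, lower in both libraries of replicate 1. In RPM, the extra-cross library was the lower for mir-145a within each table, by a log2 fold change of -0.34 in replicate 1 and -0.37 in replicate 2. The pooled value of mir-145a was -0.36 ± 0.92 (SE, limma adjusted p = 0.995).

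**Figure D1:**
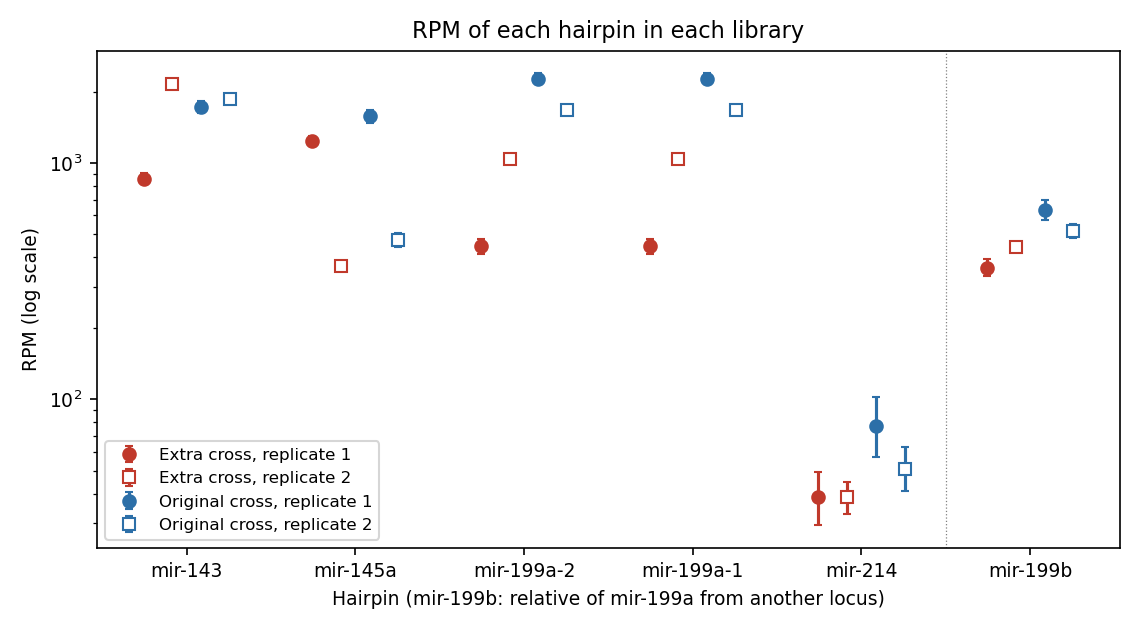
RPM (log axis) of each hairpin in each library, with extra-cross libraries in red and original-cross libraries in blue, replicate 1 filled and replicate 2 open; bars are exact Poisson 95% intervals for counting error only (approximate for the miR-199 hairpins, whose reads are divided). The miR-199a hairpins lie at 444 and 1036 RPM in the extra cross and at 2268 and 1679 RPM in the original cross. Hairpin mir-145a splits by replicate number in RPM, though by cross as a share of microRNA RPM. Its shares are 0.281% and 0.261% in the extra cross, against 0.570% and 0.404% in the original cross. The number of other hairpins whose shares split by cross was not counted.

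Set against all features, the counts were as follows. Of the 5 hairpins 0 passed limma at an adjusted p of 0.05, and 0% of the 760 tested features and 0% of the 206 tested hairpins did. None of the 5 had an unadjusted p below 0.05, while 112 of the 760 features did, 106 of them lower in the extra cross (13.9%; 0.485% of hairpins). In deposited RPM both extra-cross libraries lay below both original-cross libraries for mir-199a-1, mir-199a-2 and mir-214, 3 of the 5, a pattern found in 6.31% of hairpins and 26.8% of all features. Of the 5, 4 were lower in the extra cross within both tables, against 23.3% of hairpins and 46.3% of all features. The 2 copies of miR-199a enter these counts as if they were separate. The median log2 fold change was -0.69 over the 5 hairpins, 0.20 over the 206 tested hairpins and -0.12 over all 760 features.

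Directions depended on scaling for the smooth muscle pair. With median-ratio factors the median of all features moved to 0.34, and mir-143 and mir-145a became 0.063 and 0.11 on the log2 scale, while mir-199a-2 was -1.06 and mir-214 was -0.24. Under these factors the replicate 2 libraries of both crosses were nearly level for mir-214, which then no longer separated the crosses. With microRNA values taken as shares of their class, which removes the higher class total of the extra cross, the median of all hairpins was -0.27 and the values were -0.87, -0.82, -1.99 and -1.15 for mir-143, mir-145a, mir-199a-2 and mir-214. Hairpin mir-199a-2 lay below the median of all hairpins. Each of the 4 scalings, the deposited one included, gives all hairpins of a library the same factor. The distance from that median is therefore nearly fixed, and its likeness under the 4 is no separate check.

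**Figure D2:**
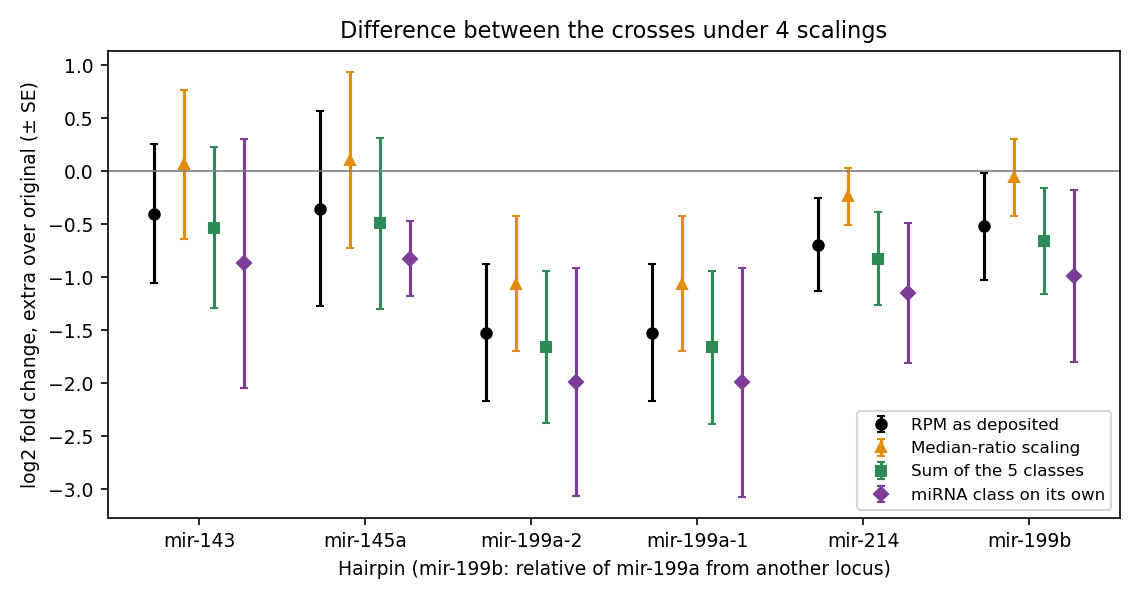
Log2 fold change of the extra over the original cross (vertical axis, ± SE from limma, n = 2 libraries per cross) for each hairpin under 4 scalings of the libraries. The miR-199a hairpins are below 0 under all 4 (-1.06 to -1.99), whereas mir-143 and mir-145a are slightly above 0 under median-ratio scaling.

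Ratios between hairpins of the same library do not depend on how it was scaled. The ratio of mir-199a-2 to mir-143 was 0.519 and 0.479 in the extra cross, against 1.31 and 0.900 in the original cross. The 2 extra-cross mice were close to each other and both lay below the original-cross mice. The mean log2 ratio was -1.0 ± 0.08 in the extra cross and 0.12 ± 0.39 in the original cross (SD, n = 2 each), a difference of -1.12, with -1.34 and -0.91 within the tables of replicates 1 and 2. This is larger than the spread between replicates, though the exact two-sided permutation test cannot go below p = 0.33, the value it gave. How many other pairs of hairpins have ratios that separate the crosses was not counted. Over the 8 shares and ratios compared, the smallest Benjamini-Hochberg adjusted p in these exact tests was 0.667.

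The mir-199a-2 row holds divided reads of the miR-199 family, so its ratio to mir-214 does not measure the products of Dnm3os alone. The ratio of the mir-214 row to the mir-199a-2 row was 0.0867 and 0.0372 in the extra cross, against 0.0341 and 0.0304 in the original cross. Extra-cross replicate 1 stood apart with the highest ratio, while extra-cross replicate 2 was near the original-cross mice. The difference of the mean log2 ratios was 0.82 (exact p = 0.33), and it was 0.21 without extra-cross replicate 1.

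The pair from the chromosome 18 locus differed by replicate number far more than by cross. The ratio of mir-145a to mir-143 was 1.45 and 0.170 in extra-cross replicates 1 and 2, against 0.911 and 0.254 in original-cross replicates 1 and 2. Both libraries of replicate 1 had nearly as much mir-145a as mir-143 or more and both of replicate 2 had far less. The mean log2 ratio was -1.01 ± 2.19 in the extra cross and -1.06 ± 1.30 in the original cross (SD, n = 2 each), a difference of 0.044 (exact p = 1.00), so that no difference between the crosses was detectable against this spread. Whether the replicate numbers mark a day, a litter or a batch is not given in the sources used here.

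**Figure D3:**
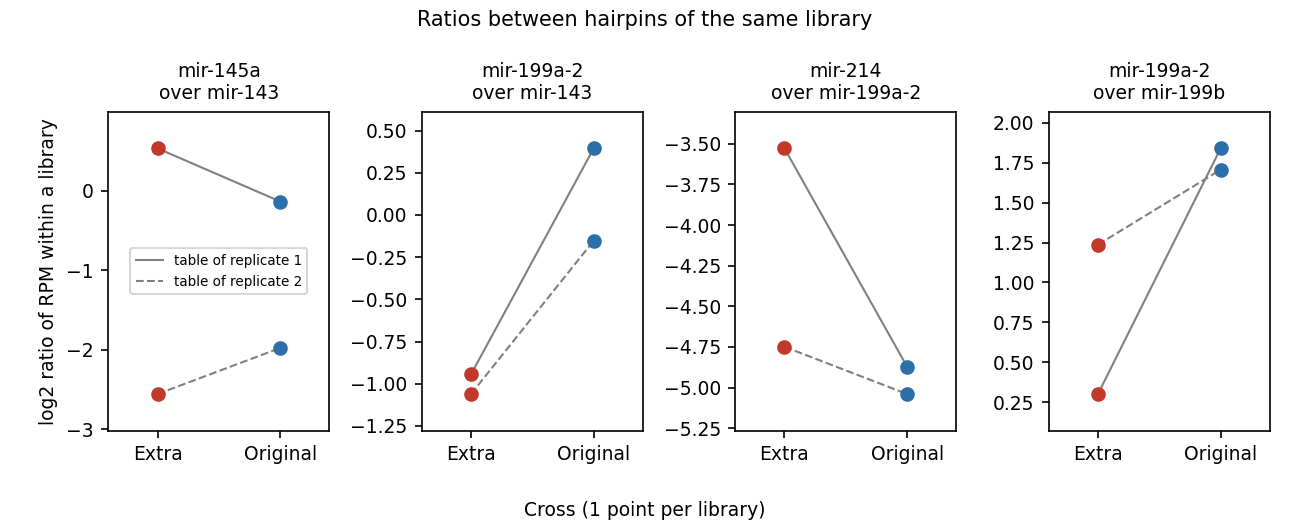
Log2 ratios of RPM between hairpins of the same library (vertical axes, which differ in range), with 1 point per library and lines joining the libraries of the same table. The ratio of mir-145a to mir-143 separates the 2 tables, whereas that of mir-199a-2 to mir-143 is near -1.0 in both extra-cross libraries and higher in both original-cross libraries. How many other pairs of hairpins have ratios that separate the crosses was not counted.

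The division of reads gave a view inside the miR-199 family. The ratio of mir-199a-2 to mir-199b was 1.23 and 2.36 in the extra cross, against 3.58 and 3.26 in the original cross. Hairpin mir-199b itself had 360 and 439.6 RPM in the extra cross, against 634 and 515 RPM in the original cross (log2 fold change -0.52 ± 0.51, SE, limma adjusted p = 0.995), and so differed less than mir-199a. The difference of the mean log2 ratios was -1.0, with -1.54 and -0.47 in the tables of replicates 1 and 2 (exact p = 0.33). If reads matching all 3 hairpins were divided equally, what mir-199a-1 and mir-199a-2 hold above mir-199b must be reads that match miR-199a but not miR-199b, such as those of the 5p arm carrying the C10U difference shown above. These reads made up at least 13.4% and 47.5% of the family in the extra cross, against at least 63.2% and 60.1% in the original cross. Being lower bounds, these values do not order the true shares of the libraries. The tables do not separate the 5p from the 3p arm, and the number of mismatches allowed in mapping is not given in the sources used here.

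**Figure D4:**
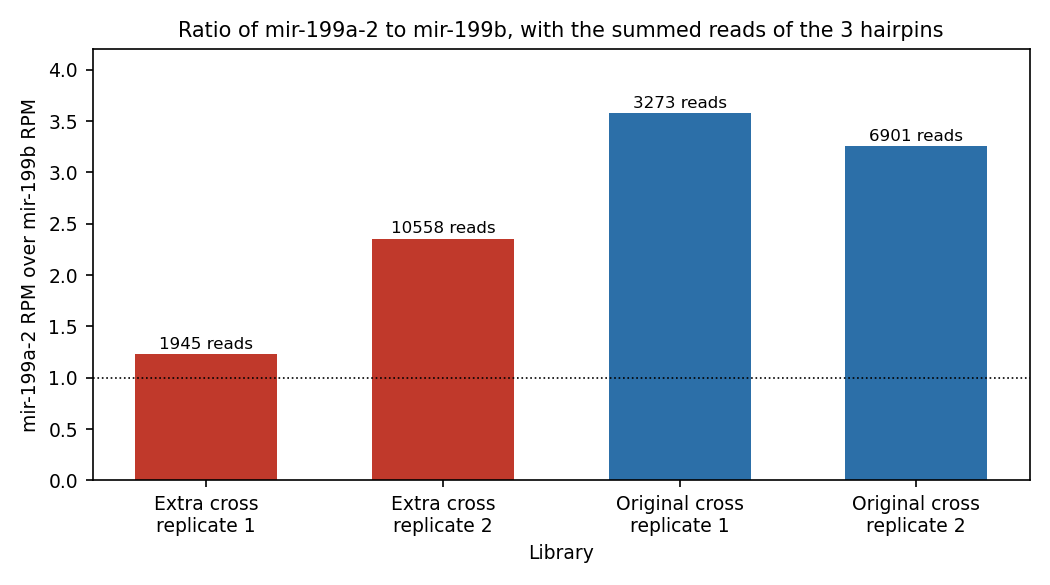
Ratio of mir-199a-2 to mir-199b RPM (vertical axis, linear from 0) in each library, extra cross in red and original cross in blue, with the summed reads of the 3 hairpins above each bar and a dotted line at equal levels. The extra-cross libraries stand at 1.23 and 2.36 and the original-cross libraries at 3.58 and 3.26.

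Together the 5 hairpins held 0.684% and 3.30% of microRNA RPM in the extra cross, against 2.87% and 4.90% in the original cross (exact p = 0.667). Markers of other cells were present in the same libraries, and their part in these results was not tested. Fewer cells of a type and less RNA per cell cannot be told apart in bulk libraries. Of 13 other hairpins listed for stroma and smooth muscle, 10 passed the minimum of 10 RPM. Of these, 4 were lower and 4 higher in the extra cross within both tables (median log2 fold change 0.14). Whether the listed hairpins are specific to these cells was not tested. The most abundant were mir-10b at 151120 and 45026 RPM, mir-21a at 8241 and 3355 RPM, and mir-125b-2 at 597 and 304 RPM in the extra cross, against 85209 and 33062, 4728 and 2769, and 774 and 569 RPM in the original cross. The hairpins of that list thus had no common direction. Hairpin mir-145b had no row in the tables analysed here.

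Epithelial hairpins were mostly higher in the extra cross. The list of 7, led by mir-141 and mir-429 of the miR-200 family, which maintains the epithelial state, summed to 2.78% and 4.14% of microRNA RPM in the extra cross, against 2.00% and 2.12% in the original cross. Of these 7, 6 were higher in the extra cross within both tables, against 42.7% of all tested hairpins (median log2 fold change 0.97). Blood cell hairpins summed to 2.53% and 0.809% in the extra cross, against 2.36% and 1.05% in the original cross, higher in both libraries of replicate 1. Endothelial hairpins mir-126a and mir-126b summed to 0.229% and 0.276% in the extra cross, against 0.277% and 0.395% in the original cross. Hairpins of spermatogenic cells summed to 0.482% and 0.934% in the extra cross, against 0.780% and 0.718% in the original cross, with mir-34c, a microRNA of late germ cells, at 1703 and 1132 RPM against 1828 and 707 RPM. The striated muscle copies mir-133a-1 and mir-133a-2 each had 44.8 and 23.02 RPM in the extra cross, against 85.1 and 35.8 RPM in the original cross. Rows for mir-1a-1, mir-1a-2 and mir-206 were not in the tables analysed here, and mir-208a was at 0 in all libraries but extra-cross replicate 2.

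**Figure D5:**
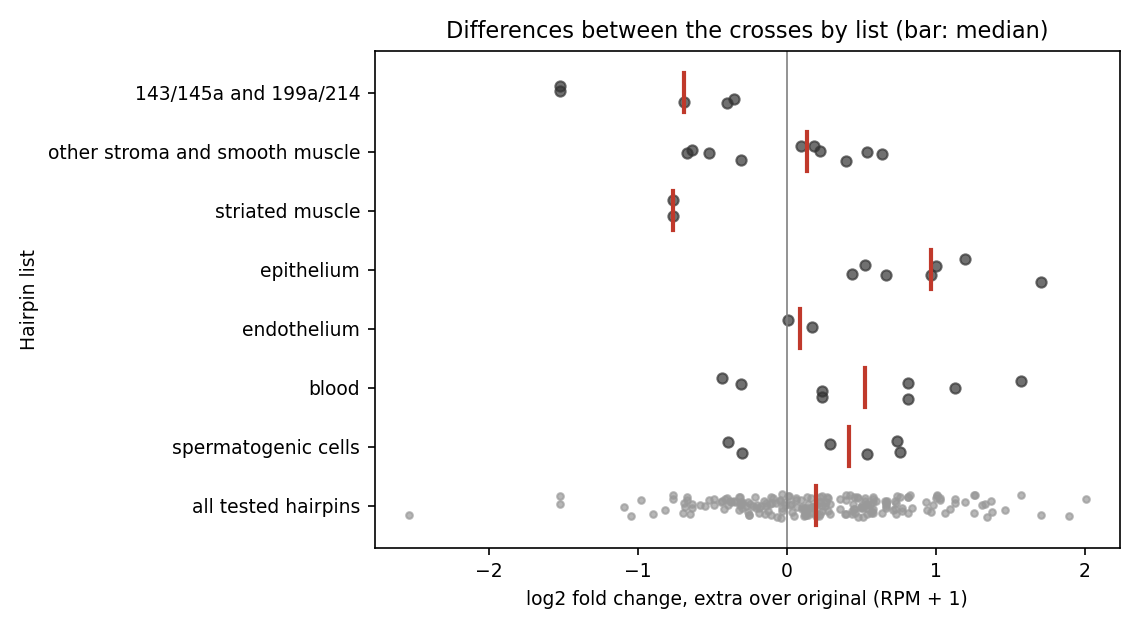
Log2 fold change of the extra over the original cross (horizontal axis, RPM + 1 scale) for each hairpin with a mean of at least 10 RPM, grouped by list, with red bars at the medians. The 5 hairpins from the chromosome 18, miR-199a and Dnm3os loci lie below 0 on the deposited scale (median -0.69), of which mir-143 and mir-145a turn to 0.063 and 0.11 under median-ratio scaling, the other stroma and smooth muscle hairpins on both sides (median 0.14) and the epithelial ones above 0 (median 0.97).

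Messages and host transcripts of stromal cells were looked up among the RefSeq fragments of the same libraries. In original-cross replicate 1 the RefSeq values were taken, judging by the values alone, to stand on another scale. The largest of its 5 commonest RefSeq values, 0.0603 RPM, was taken as 1 read, and its RefSeq values were multiplied by 26.2 here. As deposited, its fibroblast and smooth muscle sums, described next, were 104 and 0.98 RPM. The 8 fibroblast transcripts, mainly the collagens Col1a1, Col1a2 and Col3a1, summed to 1130 and 1385 RPM in the extra cross, against 2715 and 3308 RPM in the original cross. The 8 smooth muscle transcripts, which include Acta2 and Myh11 of the contractile apparatus, summed to only 21.0 and 23.7 RPM in the extra cross, against 25.8 and 34.4 RPM in the original cross. These smooth muscle sums stand for about 33 and 100 reads in the extra cross, against 16 and 61 reads in the original cross. After this rescaling neither sum overlapped between the crosses, and without it both did. The share of RefSeq features that separate the crosses in this way was not counted. Taken singly after the rescaling, Tagln, Des and Smtn separated the crosses as the smooth muscle sum did. Acta2, Myh11, Cnn1 and Actg2 overlapped, and Lmod1 was higher in both extra-cross libraries. With median-ratio factors, a check added after the data were seen, the fibroblast sums were 1207 and 1736 in the extra cross, against 2026 and 3126 in the original cross, and still did not overlap. The smooth muscle sums, at 22.4 and 29.7 in the extra cross against 19.2 and 32.5 in the original cross, then did overlap. The host RNA Dnm3os was covered by 1 and 8 reads in the extra cross, against 2 and 1 reads in the original cross. Carmn was covered by 0 and 2 reads in the extra cross, against 0 and 3 reads in the original cross. Twist1, Srf and Myocd had at most 8 reads in any library. At these depths no difference in a host or regulator transcript was detectable.

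The hairpins whose profiles over the 4 libraries were most like those of mir-199a-2 and mir-143 were ranked by the root mean square distance of log2(RPM + 1) values centred on their means, over 201 other hairpins. For mir-199a-2 they were mir-6236 (0.38), mir-199b (0.60), mir-3470b (0.61), mir-455 (0.63) and mir-127 (0.72), where the median hairpin was at 1.31. The likeness to mir-199b includes shared reads. For mir-143 they were mir-1983 (0.32), mir-3473c (0.33), mir-455 (0.39), mir-199b (0.40) and let-7g (0.41), where the median was 1.13. Its locus partner mir-145a was at 1.27, farther than the median hairpin. Chosen after these values were seen, mir-145a was nearest to mir-615 (0.054), and mir-214 was nearest to mir-127 (0.14) and stood at 0.60 from mir-199a-2. From another locus, mir-143 stood at 0.60 from mir-199a-2 and at 0.55 from mir-214, and mir-145a at 1.29 and 0.76.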

How the data were processed

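Each of 2 deposited tables holds RPM, a unit taken from the column names per the file headers, in 1 column per cross. CASAVA 1.8.2, Bowtie 1.1.2 and mm10 stand in the submitters' processing notes without a role. For trimming, annotation, the RPM total and multiply matching reads, the rule is not given in the sources used here. Per the labels' protocols, an Illumina TruSeq small RNA kit and 1 shared lane were used. Where 1 table lacked a feature, 0 was entered. Of 2150 features, 760 averaged 10 RPM or more and were tested as log2(RPM + 1) in limma 3.58.1 (R 4.3.3) with a variance trend, cross as sole term and Benjamini-Hochberg adjustment; this scale understates changes of low features. Of microRNA values up to 20 reads, 66.8% to 68.7% by library were whole within 0.02 reads, so no count model was run. Exact permutation tests compared shares and ratios. The fit was tested on simulated independent libraries with large changes and no link between replicate numbers, so its performance on these data was not tested. Python 3.11.15, pandas 2.3.3, numpy 2.4.6, scipy 1.17.1 and matplotlib 3.10.9 were used. Hairpins, marker lists and tests were chosen with earlier results of these data known. The text names the 5 hairpins, mir-199b and mir-145b, up to 3 abundant members of each list, the listed transcripts and the 5 nearest profiles.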

Additional observations from a re-analysis of the deposited data

How the results depend on the processing

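The number of features passing limma was 0 under every alternative but the replicate block, where 171 passed. That fit leaves 1 residual degree of freedom, so its variances rest mostly on those of all features. It gave mir-199a-1 and mir-199a-2 a limma adjusted p of 3.9e-08 each. The replicate numbers are not stated to pair mice. Deviations of same-numbered libraries from their cross means correlated at 0.87 across the 760 features, with only 2 pairs. In this balanced layout the block cannot change a fold change, share or ratio, so their unchanged values are no check. Of 95 planned recomputations of the fold changes of the 5 hairpins and mir-199b, 5 reversed, all of mir-143 and mir-145a. Filters, the choice of tested features, the variance trend and the block cannot move a fold change, so many of the 95 could not reverse. Only rescaling, pseudocounts and leaving out a library could. For mir-143 and mir-145a median-ratio scaling gave 0.063 and 0.11, and leaving out 1 library in turn gave -1.07 to 0.27 and -1.23 to 0.52. Within the tables mir-143 was 0.21 in replicate 2. The range without each library was -2.13 to -0.91 for both miR-199a hairpins, -0.99 to -0.40 for mir-214 and -0.67 to -0.37 for mir-199b. With 1 library left out, the lone library of its cross is assumed to vary like the others. For the ratios, that range was -1.50 to 1.59 for mir-145a over mir-143, -1.40 to -0.85 for mir-199a-2 over mir-143, 0.21 to 1.43 for mir-214 over mir-199a-2, -1.47 to -0.54 for mir-199a-2 over mir-199b and -0.0027 to 0.0002 for the 2 copies of miR-199a. For the share of the 5 hairpins it was -3.20 to -0.58 percentage points, for that of the miR-199 family -2.30 to -0.80 and for that of mir-143 with mir-145a -1.12 to 0.21. Without mir-199a-1, the share of the hairpins differed by -1.18 points. Hairpin mir-214 lies below a minimum of 100 RPM and had no value there. The ratio to mir-199b, the 2 partial shares and the within-table values were added after the data were seen. The causes were not tested. Original-cross replicate 1 is the shallowest library and limits mir-214 most.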
